A study of Mus musculus with 6 samples.

Results

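The genes described here are 10 immediate early genes, Fos, Fosb, Jun, Junb, Atf3, Egr1, Nr4a1, Ier2, Dusp1 and Zfp36, in macrophages sorted from colorectal tumours of mice (tumour-associated macrophages). They were taken by symbol from the 24391 gene rows of the count table and from the 23284 rows of a second table, and all 10 were present in both. All 10 also passed the filter on low counts, which kept 12710 genes. The mice were of the BALB/C strain, either wild type (WT) or without the chemokine gene Ccl5 (CCL5-/-), and their cells were sorted on CD11b and F4/80. Cells high for CD11b and low for F4/80 (F4/80low) gave WT replicates 1 and 2 and CCL5-/- replicates 1 and 2, as raw counts. Cells low for CD11b and high for F4/80 (F4/80hi) gave a single library under each genotype label, as FPKM, a read density per length of transcript and per size of library. The labels name no age, treatment, digestion step or sorting time, and leave it unsaid whether the replicates are separate mice, so a p-value covers only how far these libraries lie apart, a spread that may be technical.

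Immediate early genes are switched on within minutes of a signal, without new protein synthesis, when MAP kinases act on factors such as SRF, its ELK partners and CREB that already sit at their promoters. Fos, Fosb, Jun and Junb encode subunits of the AP-1 transcription factor, and Atf3 encodes a related, mostly repressive factor. Egr1 encodes a zinc finger factor, Nr4a1 an orphan nuclear receptor and Ier2 a small nuclear protein. Dusp1 encodes a phosphatase that shuts off p38 and JNK, and Zfp36 encodes tristetraprolin, which binds AU-rich cytokine mRNAs and speeds their decay. In macrophages these genes respond to bacterial products and cytokines, and they are also known as a mark of cells handled during tissue digestion and sorting, as are heat shock genes.

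Promoter sequences from RefSeq (GRCm38.p6) matched 8 of the 10 genes, the exceptions being Egr1 and Ier2. The stretches shown are those of Fos and Dusp1, which had lower levels in replicate 2 than in replicate 1, and of Junb, which did not. Capitals mark the letters of 5 motifs searched on both strands, namely TGACG (part of the cAMP response element), the full element TGACGTCA (which holds TGACG on either strand), the AP-1 site TGANTCA, the TATA box letters TATAAA and the CArG box bound by SRF. For Dusp1 the last 50 bases before the start are left off because an annotated exon covers 47 of them. The positions are chr12:85473640-85473889 on the plus strand for Fos, chr17:26508523-26508722 on the minus strand for Dusp1 and chr8:84978749-84978998 on the minus strand for Junb.
Fos: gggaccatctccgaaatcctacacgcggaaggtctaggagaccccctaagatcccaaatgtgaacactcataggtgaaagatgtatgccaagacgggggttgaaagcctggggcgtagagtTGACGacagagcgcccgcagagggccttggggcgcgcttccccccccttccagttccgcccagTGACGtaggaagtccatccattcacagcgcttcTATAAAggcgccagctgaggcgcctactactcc
Dusp1: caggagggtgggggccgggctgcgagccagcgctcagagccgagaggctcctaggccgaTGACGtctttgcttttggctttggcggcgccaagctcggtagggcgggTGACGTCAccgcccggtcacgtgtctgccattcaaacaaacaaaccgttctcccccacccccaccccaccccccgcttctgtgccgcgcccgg
Junb: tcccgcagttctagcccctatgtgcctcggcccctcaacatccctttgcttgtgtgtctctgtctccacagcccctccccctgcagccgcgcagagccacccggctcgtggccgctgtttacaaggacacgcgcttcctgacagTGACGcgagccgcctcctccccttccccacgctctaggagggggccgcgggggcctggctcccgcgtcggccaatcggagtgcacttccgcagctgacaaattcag

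In the 250 bases before the start, TGACG was found in 6 of the 8 genes (Fos, Fosb, Junb, Atf3, Nr4a1 and Dusp1), against 17.8% of 32851 promoters of the same length. Nr4a1 held it at 4 places and Fos at 2, the nearer of these 66 to 62 bases before the start. The full TGACGTCA was found in Dusp1 alone of the 8, 143 to 136 bases before the start, against 1.55% of promoters. The CArG box was found in Zfp36 alone, against 1.47% of promoters, and TATAAA in Fos alone, against 12.4%. An annotated exon of Zfp36 covers all 250 bases of its window, and bases farther from the start were not searched in any gene. TGANTCA was in 0 of the 8 windows, against 6.75% of promoters. These matches describe letters within short windows and show no binding. In GENCODE M21 (GRCm38) Fos is at chr12:85473890-85477273 (plus strand, 4 exons), Dusp1 at chr17:26505590-26562128 (minus strand, 4 exons) and Junb at chr8:84974484-84978718 (minus strand, 1 exon). The annotated span of Dusp1 takes in the stretch printed for it, which lies before the RefSeq start.

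The 6 deposited libraries behaved as 4. For genes with 20 to 400 reads, the reads of each gene split between WT replicate 1 and CCL5-/- replicate 1 as the FPKM ratio of the F4/80hi libraries predicts, crosswise to the labels, with a median chi-square of 0.334 over 6677 genes. Independent reads give 0.455, and the remaining 11 ordered pairings gave 3.58 to 8.996. On these genes the F4/80hi pair and the replicate 1 pair agree within sampling noise, and they are counted once, as the same 2 samples. The 10 immediate early genes have more reads and were not among those used. Rn45s, the ribosomal RNA precursor, took 50.03% and 58.4% of counts in the replicate 1 libraries and 0.844% and 1.38% in the replicate 2 libraries, which left 3857011 to 22222208 counts for other genes. The targeted gene Ccl5 had 255 and 3976 reads in WT and 35 and 82 in CCL5-/-. The defining macrophage genes Csf1r, Cd68 and C1qa were present in each F4/80low library. Each of the 10 genes had 627 to 33882 reads in each F4/80low library, so counting error alone was at most 3.99% of a value.

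All 10 genes were abundant. Levels are CPM, a gene's counts relative to its library's total after TMM scaling, and levels of different genes are compared as CPM per kilobase of exonic sequence in GENCODE M21. On that scale each of the 10 stood above at least 90.5% of 11788 protein-coding genes in each F4/80low library, and at most above 99.3%. Junb was first of the 10 in all 4 libraries, at 356 and 382 CPM per kilobase in WT replicates 1 and 2 and at 290.4 and 541 in CCL5-/- replicates 1 and 2. Egr1 followed in replicate 1 (201 and 195 CPM per kilobase in WT and CCL5-/-) and Ier2 in replicate 2 (199.5 and 199.2). Nr4a1, with 30.5 to 56.6 CPM per kilobase, and Atf3, with 38.7 to 65.1, overlapped at the low end. Fos (35.4 to 119.9 CPM per kilobase) overlapped both. The ranges of Egr1, Ier2, Dusp1, Fosb, Zfp36 and Jun lay below that of Junb, and they overlapped each other except for Jun and Ier2, the latter being higher in each library. The exons of Junb share 173 bases with Prdx2 on the other strand, those of Jun 232 with an antisense RNA and those of Zfp36 125 with another, and reads there cannot be told apart because strand use in counting is not given.

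**Figure D1:**
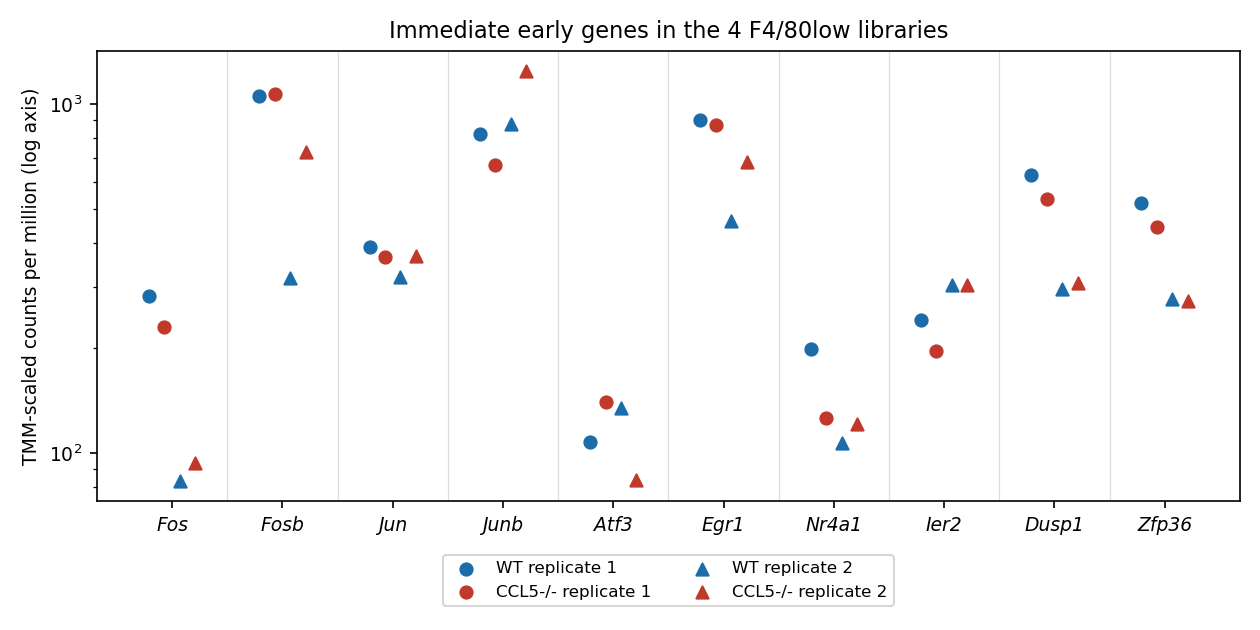
Level of each gene (x axis) in TMM-scaled CPM (y axis, log scale) in the 4 F4/80low libraries, 1 point per library, with colour for genotype and shape for replicate number. For Fos, Fosb, Egr1, Nr4a1, Dusp1 and Zfp36 both circles (replicate 1) lie above both triangles (replicate 2), while for no gene do the colours separate.

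No difference by genotype was detected in any of the 10 genes, in a fit that also missed the targeted gene Ccl5 (log2 change -4.64). None passed an adjusted p of 0.05, with 0 of 10 against 0% of the 12710 genes tested, and the lowest unadjusted p of a member was 0.526 (edgeR). Without a replicate block DESeq2 (0.00556% of genes called) and limma-voom (0%) also called 0 of the 10. In edgeR without the block 0 of the 10 had an unadjusted p under 0.05. The WT and CCL5-/- values overlapped for all 10, while over all genes the groups did not overlap for 16.6% (8.36% higher and 8.24% lower in CCL5-/-). The median log2 change was -0.12 over the 10 genes and -0.01 over all genes tested. The standard errors of the 10 log2 changes were 0.43 to 0.75, with 2 libraries a genotype, so the lack of calls does not show the genes unchanged. With a block for the replicate number (edgeR) these errors were 0.23 to 0.30. Fosb then had the largest change of the 10, 0.60 (SE 0.30), and was not called.

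Among the AP-1 genes, Fos was at 282 and 83.3 CPM in WT replicates 1 and 2 and at 230.0 and 93.8 CPM in CCL5-/- replicates 1 and 2. The low values were those of replicate 2 in either genotype, so the means were 183 ± 141 CPM in WT and 162 ± 96.3 CPM in CCL5-/- (SD, n = 2). Fosb was at 1059 and 318 CPM in WT and at 1069 and 728 CPM in CCL5-/-. The replicate 1 libraries were alike and the WT replicate 2 library was lowest, which gave log2 changes of 0.01 (replicate 1 pair) and 1.19 (replicate 2 pair), against 0.38 (SE 0.71) over 4 libraries. Jun varied little, with 390.1 and 319.7 CPM in WT and 366 and 368 CPM in CCL5-/-. Junb was at 819 and 879 CPM in WT and at 668 and 1244 CPM in CCL5-/-, the last being the highest value. Atf3 was higher in CCL5-/- in the replicate 1 pair and lower in the replicate 2 pair, with 108 and 135 CPM in WT and 140.3 and 83.4 CPM in CCL5-/-, and log2 changes of 0.38 and -0.69.

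Of the other transcription factors, Egr1 was at 903 and 463 CPM in WT and at 873 and 685 CPM in CCL5-/-. Its replicate 1 values nearly coincided and the WT replicate 2 library was lowest, as for Fosb. Nr4a1 was at 199 and 107 CPM in WT and at 126 and 121 CPM in CCL5-/-, so that the WT replicate 1 library was high and the other 3 were close. Ier2 was at 240.3 and 304 CPM in WT and at 197 and 303 CPM in CCL5-/-, with higher values in replicate 2. The feedback genes shared a pattern over the libraries. Dusp1 was at 625 and 295 CPM in WT and at 537 and 307 CPM in CCL5-/-. Zfp36 was at 523 and 276 CPM in WT and at 444 and 273 CPM in CCL5-/-. Their replicate 2 values almost coincided between genotypes, with log2 changes of 0.06 for Dusp1 and -0.01 for Zfp36 in that pair.

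The sign of the genotype difference depended on the pair. In the replicate 1 pair 8 of the 10 genes were lower in CCL5-/-, against 6267 of all 12710 genes. The log2 changes of the 10 were from -0.66 to 0.38. In the replicate 2 pair 7 of the 10 were higher, against 6052 of all 12710 genes, and the 10 ranged from -0.69 to 1.19. The sign was the same in both pairs for 3 of the 10 (Fosb, Ier2 and Zfp36), against 51.3% of all genes. Each of these had a value near 0 in 1 pair, so its sign there is not firm. The values were 0.013 for Fosb (replicate 1 pair), and -0.0028 for Ier2 and -0.013 for Zfp36 (replicate 2 pair). This difference between pairs was not tested, because 1 library per genotype and number leaves no spread. The authors' deposited table gives log2 changes from -0.155 (Nr4a1) to 0.177 (Fosb), each with an adjusted p of 0.9999. Neutrophil markers stood beside these values with a median log2 change of -2.22, all 11 lower in CCL5-/- and 0 called (edgeR, without a replicate block). With the block 1 of the 11 was called lower, against 0.0787% of all genes called lower, and the calls changed with a library left out. Without WT replicate 1 the median was 0.19, and the part of these markers in the results was not tested.

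**Figure D2:**
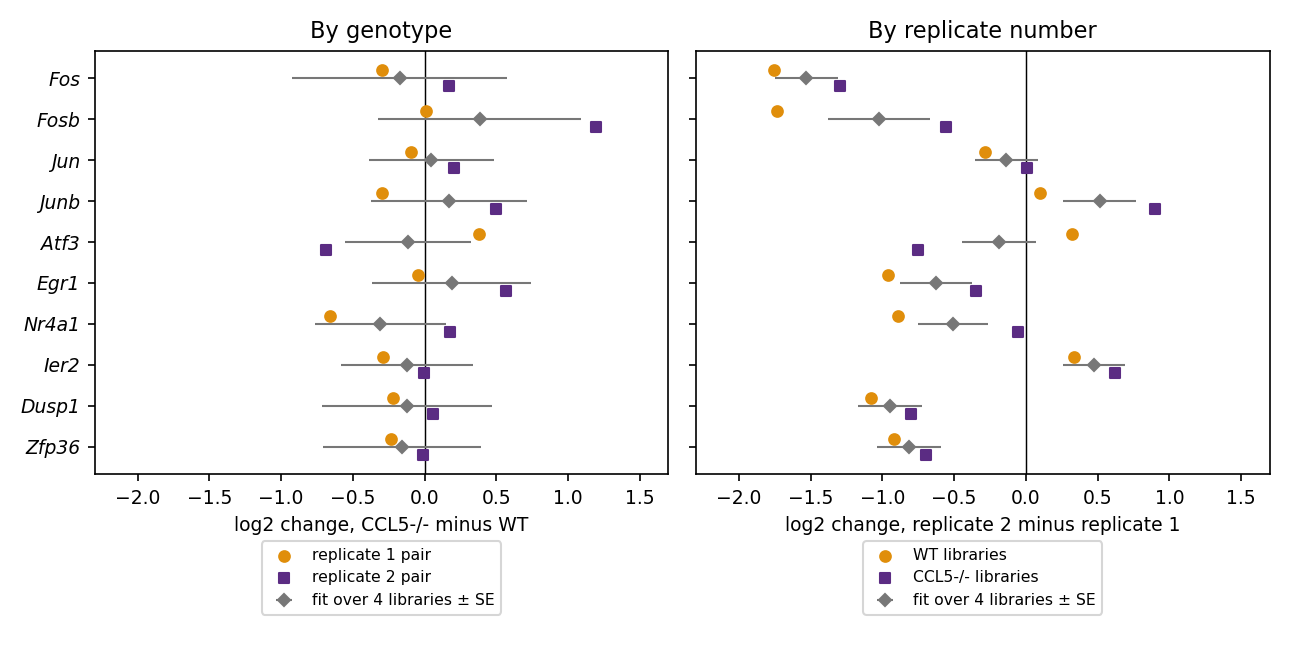
Log2 change of each gene (y axis) by genotype on the left and by replicate number on the right. Diamonds with bars are the fit over 4 libraries with its SE, and circles and squares are single pairs of libraries. By genotype 3 genes keep their sign in both pairs, and by replicate number 8 do.

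By replicate number the genes split into those that fell and those that did not. Fos, Dusp1 and Zfp36 were lower in replicate 2 than in replicate 1 at an adjusted p under 0.05. These 3 of 10 (30%) are close to the 29.6% of all 12710 genes called in this comparison (16.5% lower and 13.1% higher), so the count says nothing particular about immediate early genes. Groups did not overlap for 8 of the 10, 6 lower and 2 higher in replicate 2, against 68.2% of all genes (34% lower and 34.2% higher). The sign was the same in both genotypes for 8 of the 10, against 77.6% of all genes. The median log2 change was -0.57 over the 10 genes and 0.01 over all genes tested. The labels give the replicate number no meaning. The number cannot be told apart from the Rn45s share, nor from the gate if the replicate 1 libraries are F4/80hi cells.

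Fos had the largest difference of the 10, with 256 ± 36.8 CPM in replicate 1 and 88.5 ± 7.47 CPM in replicate 2 (SD, n = 2), or 2.89-fold. Its log2 change was -1.53 (SE 0.22, edgeR adjusted p = 0.00044), with -1.76 within WT and -1.29 within CCL5-/-. It was also called with each library left out in turn. Dusp1 was at 581 ± 62.5 and 301 ± 8.67 CPM, a log2 change of -0.95 (SE 0.22, adjusted p = 0.0078). Zfp36 was at 483 ± 55.8 and 274.6 ± 1.71 CPM, a log2 change of -0.81 (SE 0.22, adjusted p = 0.016). Both lost their call without WT replicate 1 (adjusted p of 0.097 and 0.169), and Zfp36 also without CCL5-/- replicate 1 (0.067), where 15.2% and 17.3% of all genes were called, with log2 changes that remained between -1.01 and -0.67.

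Fosb had a log2 change of -1.02 (SE 0.35) and did not pass (adjusted p = 0.057). Its value was -1.73 within WT and -0.55 within CCL5-/-. It passed with a genotype term (adjusted p = 0.012), in DESeq2 (0.011), in limma-voom (0.036), with no filter on low counts (0.0016) and without CCL5-/- replicate 2 (0.00062). These fits called 31.8%, 23.7%, 26.6%, 25.9% and 23.5% of all genes. Egr1 (-0.63, SE 0.25) and Nr4a1 (-0.51, SE 0.24) did not pass, with adjusted p of 0.078 and 0.137, and Egr1 passed without CCL5-/- replicate 2 (0.016) and in limma-voom with a genotype term, a fit chosen after seeing the data (0.042, with 33.7% of all genes called). With 1 library left out Egr1 ranged from -0.94 (without CCL5-/- replicate 2) to -0.37 (without WT replicate 2). Nr4a1 ranged from -0.76 (without CCL5-/- replicate 1) to -0.12 (without WT replicate 1). Jun (-0.14, SE 0.22) and Atf3 (-0.19, SE 0.26) had overlapping groups. Junb (0.51, SE 0.25) and Ier2 (0.47, SE 0.22) had higher values in both replicate 2 libraries and did not pass (adjusted p of 0.145 and 0.120), though Junb passed without WT replicate 2 (0.042, with 25.4% of all genes called).

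Ratios of reads within a library do not depend on the scaling between libraries. They come from the same counts as the fits, so the same split in them is not separate support. The reads of Junb over those of Fos were 2.91 in both replicate 1 libraries and 10.6 and 13.3 in the WT and CCL5-/- replicate 2 libraries. The ratio of Jun to Fos was 1.38 and 1.59 in replicate 1 and 3.84 and 3.92 in replicate 2. By contrast Dusp1 and Zfp36 kept nearly 1 ratio in all 4 libraries, from 1.07 to 1.21. Fosb to Fos was 3.76 and 3.82 for WT but 4.65 and 7.76 for CCL5-/-, highest in CCL5-/- replicate 2.

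Markers of other cells also differed by replicate number. Neutrophil markers summed to 3785 and 776 CPM in WT and CCL5-/- replicate 1 and to 600 and 347 CPM in replicate 2, with 3 of 11 called lower, against 16.5% of all genes, and none of the 11 at 0 in any library. That count depended on the fit, with 8 in limma-voom and with a genotype term, 6 in DESeq2 and 5 with no filter. Of all genes, limma-voom called 15.9% lower, the fit with a genotype term 18%, DESeq2 12.6% and the fit with no filter 12.7%. The number of neutrophil markers called also rose without CCL5-/- replicate 1 and fell without either replicate 2 library, fits in which a replicate number has a single library. Monocyte markers summed to 624 and 489 CPM in replicate 1 and 236 and 139 CPM in replicate 2 (3 of 5 called lower). Macrophage markers summed to 1732 and 1826 CPM in replicate 1 and 2974 and 2099 CPM in replicate 2. Of these 9 markers 3 were called higher and 2 lower, against 13.1% and 16.5% of all genes. Of the gate genes, Itgam (CD11b) had 598 and 580 CPM in the replicate 1 libraries against 180.4 and 144 CPM in the others. Adgre1 (F4/80) had 35.6 and 53.7 CPM against 51.8 and 35.3 CPM, and its groups overlapped. Over the 4 libraries the other lists summed to 26.1 to 59.6 CPM (T cells), 63.0 to 274 (NK cells), 0 to 1.12 (B cells), 45.9 to 72.8 (dendritic cells) and 7.90 to 16.1 (eosinophils, basophils and mast cells). They summed to 703 to 1047 CPM (fibroblasts), 9.88 to 22.7 (endothelium), 17.2 to 31.8 (epithelium and tumour) and 126 to 191 (red cells and platelets, with 4 haemoglobin genes at 0). In bulk samples fewer cells of a type and less RNA per cell cannot be told apart, and the part of these cells in the differences of the 10 genes was not tested.

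Gene structure was not used in the choice of genes. Jun, Junb and Ier2 are the 3 genes with a single exon, and they include the only 2 with higher values in both replicate 2 libraries. Atf3, whose groups overlapped, has 4 exons like Fos and Dusp1, and no difference by exon number was tested. Over all tested genes, however, the 266 single-exon genes had a median log2 change of -0.02 by replicate number, against 0.01 for 11522 genes with 2 or more exons. Transcript length moved with the replicate number. The median log2 change was 0.59 for 1946 genes with transcripts under 1500 bases, 0.23 for 4110 genes of 1500 to 3000 bases and -0.40 for 5732 longer genes. Fos, with 2108 bases, lay 1.76 below the median of its band on the log2 scale (a difference of -1.76), and 2.43% of that band was lower. Dusp1 (1990 bases) and Zfp36 (2790 bases) differed from the same median by -1.18 and -1.04. Junb, Ier2 and Jun differed from theirs by 0.28, 0.24 and 0.26, and 7 of the 10 genes were below their band's median. Transcript GC content moved too, with a median of 0.44 for 591 genes of at least 60% GC. Of the 10 genes only Junb (62.6%) and Ier2 (60.9%) are in that class. Both have a single exon, and the 48 single-exon genes of that class had a median of 0.09, against 0.45 for the 543 with more exons.

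**Figure D3:**
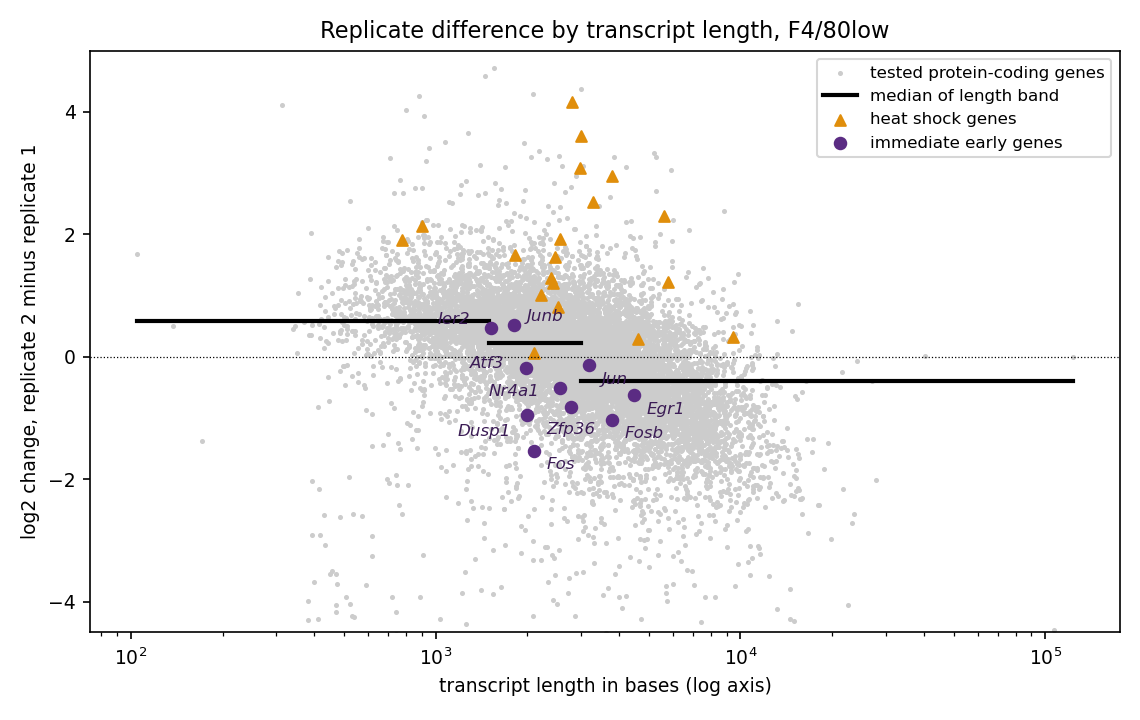
Log2 change by replicate number (y axis) against transcript length (x axis, log scale) for 11788 protein-coding genes, 60 of which lie outside the plotted range. Purple points are the immediate early genes and orange triangles heat shock genes, and black lines are medians of 3 length bands. Fos, Dusp1 and Zfp36 lie below their band's line and most heat shock genes above it.

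Related gene lists showed that the stress genes did not share 1 direction. Heat shock genes, most of which encode chaperones, had a log2 change above 0 by replicate number for 19 of 19. Of the 19, 16 were called higher in replicate 2 and 0 lower, against 13.1% and 16.5% of all genes, with a median log2 change of 1.67. Hspa1b rose from 36.4 and 32.4 CPM in WT and CCL5-/- replicate 1 to 783 and 453 CPM in replicate 2, a log2 change of 4.17 (SE 0.31). Its near-identical neighbour Hspa1a, whose reads may not be separable, rose by 3.08, Dnajb1, a co-chaperone gene, by 3.60, and Hsph1 by 2.95. Hsp90aa1, which encodes the inducible HSP90, rose by 2.52. Hsf1, the gene of the heat shock factor itself, had 0.07 and did not pass. The number of heat shock genes called fell without either replicate 1 library, as did the share of all genes called higher. It held without either replicate 2 library. After the median of each gene's length band was taken off, the list median was 1.44, against -0.52 for the 10 immediate early genes. By genotype 0 heat shock genes passed, with medians of 0.09 for replicate 1 and -0.50 for replicate 2, and the list was highest in WT replicate 2 (a sum of 12074 CPM, against 2872, 3541 and 8240 in WT replicate 1 and CCL5-/- replicates 1 and 2).

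The reads of Hspa1b over those of Fos set the heat shock gene that rose most beside Fos, which fell most of the 10 genes. Both are extremes of their lists, and Fos does not stand for AP-1. By replicate number Jund had a log2 change of 1.03 and Junb of 0.51, against -1.53 for Fos. This ratio was 0.129 and 0.141 in WT and CCL5-/- replicate 1 and 9.41 and 4.82 in replicate 2. The replicate 1 libraries were thus relatively rich in Fos and poor in Hspa1b, and the replicate 2 libraries the reverse. Genes of the ATF4 stress response, several of which act with Atf3, had a median log2 change of 1.04. In replicate 2, 7 of the 12 were called higher, against 13.1% of all genes, and 0 lower, against 16.5%. Among them the log2 change was 2.74 for Chac1, 1.67 for Ddit3, which encodes CHOP, and 1.141 for Atf4 itself, whereas Atf3 did not pass.

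**Figure D4:**
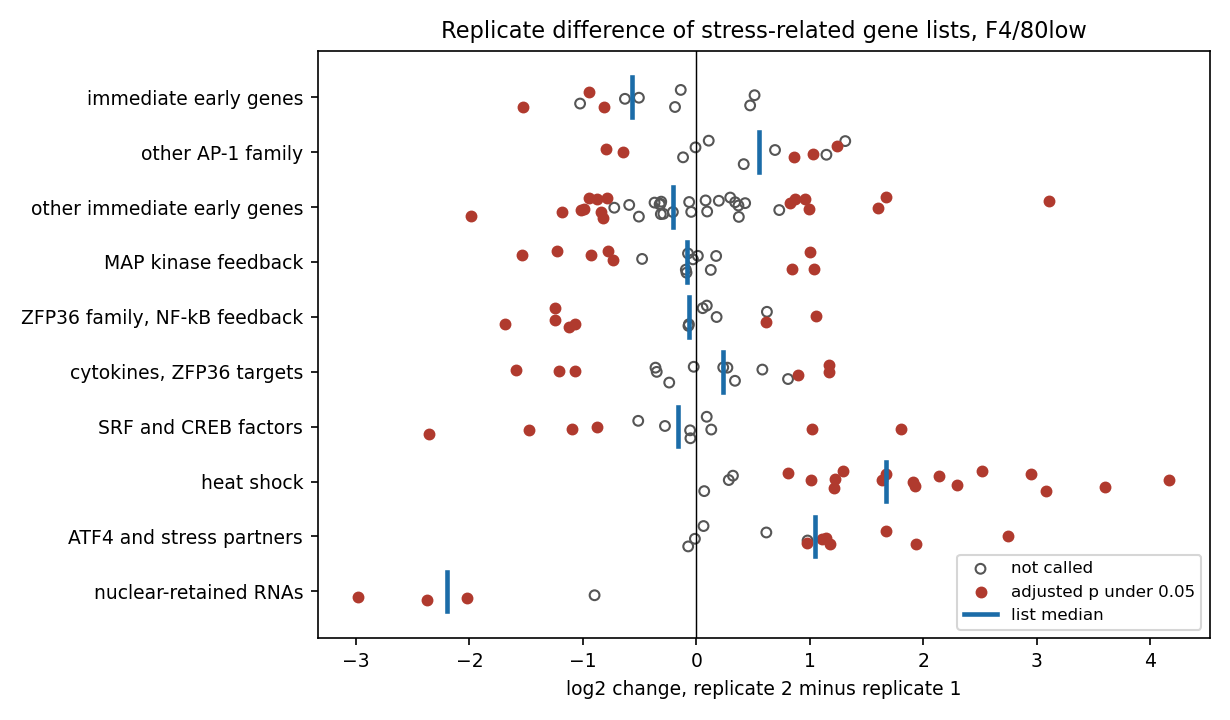
Log2 change by replicate number (x axis) of each tested gene of 10 lists (y axis), 1 point per gene. Filled points have an adjusted p under 0.05 and bars are list medians, from 1.67 for heat shock genes to -0.57 for the immediate early genes and -2.20 for nuclear-retained RNAs.

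The other families had calls in both directions, where 16.5% of all genes were called lower and 13.1% higher. Of 12 other AP-1 genes 3 were higher and 2 lower in replicate 2 (median 0.56). Jund, whose protein pairs with FOS as JUN does, rose by 1.03 (SE 0.26), and Maff, a small MAF factor, by 0.86. The FOS relatives on the list went opposite ways. Fosl2 fell by 0.65 on the log2 scale, while Fosl1 rose by 1.15 (SE 0.41) and did not pass (edgeR adjusted p = 0.079). Of 37 other immediate early genes 7 were higher and 9 lower (median -0.21). Per1, a clock gene, fell by 1.98 and Egr2, a relative of Egr1, fell by 0.84. Arc rose by 3.11 and Phlda1 by 1.60. Fosl2, Egr2 and Hsf1 were named after their values were seen.

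Feedback and upstream genes were as mixed, and their counts stand against the same 16.5% lower and 13.1% higher of all genes. The relatives Zfp36l1 and Zfp36l2 fell by 1.25 and 1.12 on the log2 scale, like Zfp36, and on that list 5 of 13 genes were lower and 2 higher. Rel, an NF-kB subunit gene, fell by 1.68 and Nfkbiz by 1.25. Of 15 cytokine genes whose mRNAs ZFP36 is known to hold down, 3 were lower and 3 higher, with Cxcl3 at -1.59, Cxcl2 at -1.07 and Lif at 1.17. Of 16 MAP kinase feedback genes 5 were lower and 3 higher, among them Dusp16 at -1.23 and Dusp8 at 1.04. Of 21 upstream kinase genes 5 were lower and 1 higher, in total close to the 29.6% of all genes called. Among these kinases Braf was at -1.75 and Mapk14, which encodes p38 alpha, at -0.96. Of 12 SRF and CREB factor genes 4 were lower and 2 higher, with the ELK family gene Elk4 at -2.36, Crem, a gene of CREB-family regulators, at 1.80 and Srf at 1.02. None of these lists had a gene called by genotype, over 12710 genes (edgeR).

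RNAs held in the nucleus were lower in replicate 2, with 3 of 4 called, against 16.5% of all genes called lower. Malat1 was at 4934 and 5015 CPM in WT and CCL5-/- replicate 1 and at 1319 and 598 CPM in replicate 2. Neat1, the scaffold RNA of paraspeckles, was at 974 and 606 CPM against 112 and 88.8 CPM. With Rn45s, whose log2 change was -6.60, these are signs of RNA composition that split the same way as Fos, Dusp1 and Zfp36. Their part in the differences was not tested.

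The genes whose pattern over the 4 libraries was closest to the median of the 10 were Stk24, Rev1, Dnm2, Tns2, Plxnd1 and Irak4. They lay within a root mean square distance of 0.0683 to 0.0785 on the log2 scale, among 8276 genes ranked. Stk24 was at 81.9 and 46.8 CPM in WT and 73.3 and 55.9 CPM in CCL5-/- replicates 1 and 2. Of the 10 genes Egr1 was nearest to the median pattern (0.134) and Junb farthest (0.560).

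In the F4/80hi libraries the 10 genes were at 52.9 to 330.1 FPKM in the library labelled WT and at 70.0 to 364 FPKM in the library labelled CCL5-/-. The genotype labels and the sample titles disagree for these 2 libraries, and Ccl5 goes against the labels, with 145 FPKM under the label CCL5-/- and 15.7 FPKM under the label WT. There was 1 library per label, hence no test and no replicate check. None of the 10 genes differed 2-fold, against 3.92% of 11670 genes with an FPKM of at least 1 in either library. Differences are log2 of FPKM + 1, which understates those of low genes. The largest was that of Nr4a1, at 52.9 and 82.1 FPKM (log2 difference 0.62), followed by Fos, at 139.8 and 182 FPKM (0.38), both higher in the library labelled CCL5-/-. Atf3 was lower there, at 83.9 and 70.0 FPKM (-0.26). The authors' bounds overlapped for all 10 genes. Egr1, Dusp1, Zfp36, Junb and Fosb were the highest 5 in both libraries, with 286 to 364 FPKM and overlapping bounds. Junb had rank 4 of the 10 in both, whereas in CPM per kilobase it was first in each F4/80low library, so its rank depends on the measure.

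The match to replicate 1 was not equally close for all 10 genes. For several, among them Junb, Ier2 and Dusp1, it was looser than counting error. After the median offset over 11684 genes was taken off, the difference between the library labelled WT and the one labelled CCL5-/- was within 0.22 on the log2 scale of the difference between CCL5-/- and WT replicate 1 for all 10. The gap was smallest for Nr4a1 (-0.01) and largest for Junb (-0.22), with -0.16 for Ier2 and for Dusp1. Counting error was at most 3.99% of a single value. In WT and CCL5-/- replicate 1 it was 1.45% and 1.32% for Junb, 2.67% and 2.43% for Ier2 and 1.66% and 1.47% for Dusp1. Put on the log2 scale, errors of this size are smaller than a gap of 0.16. The F4/80hi values are not used as further replicates of any difference above.

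**Figure D5:**
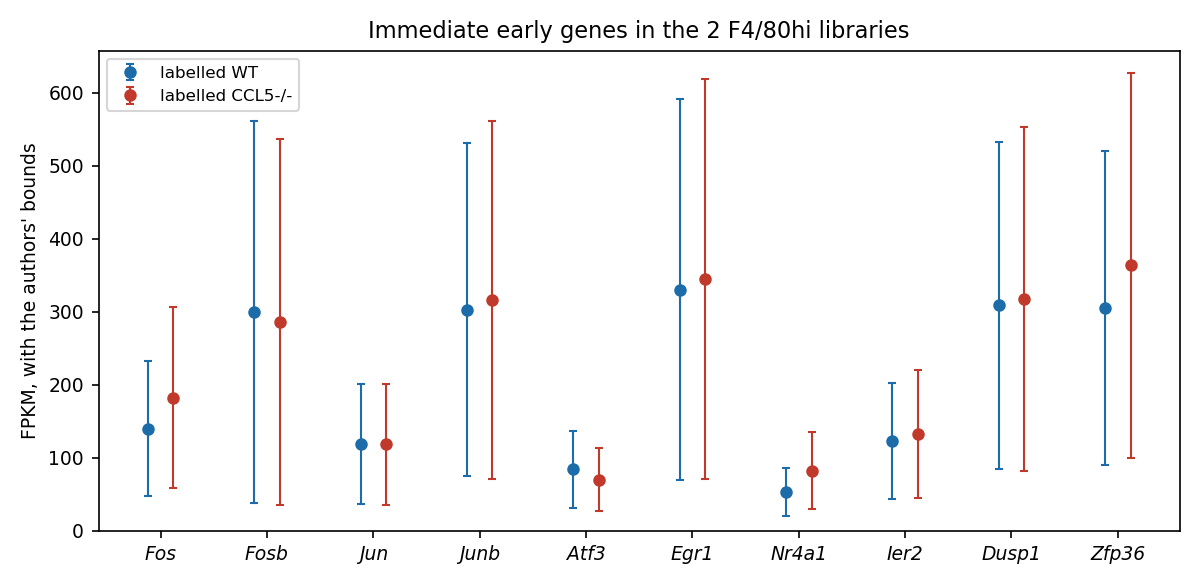
FPKM (y axis) of each gene (x axis) in the 2 F4/80hi libraries, 1 point per library under its genotype label, with the authors' lower and upper bounds as bars. The bars of the 2 libraries overlap for each gene, and no gene differs 2-fold.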

How the data were processed

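The F4/80low table, deposited by the authors, holds whole-number read counts, and 4 further columns of scaled per-sample values were not used. The authors' deposited comparison gives a log2 fold change, its standard error and an adjusted p-value, and their F4/80hi table gives FPKM with lower and upper bounds, per the file headers. Tools named, per the submitters' processing notes, include STAR, HTSeq and DESeq2 as well as TopHat2 2.1.1 with Cufflinks 2.2.1. Their roles are not given in the sources used here. FPKM loci overlapped the GRCm38 gene body for 99.4% of 18563 symbols.

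The count fits used edgeR 4.0.16 under R 4.3.3 (filterByExpr, TMM, robust quasi-likelihood F test, two-sided, Benjamini-Hochberg over 12710 genes, threshold 0.05), by genotype and by replicate number, without further terms. The standard error is the log2 change divided by the square root of F. Changes within a pair use log2 CPM with a prior count of 2. DESeq2 1.42.0, limma-voom (limma 3.58.1), other scalings, no filter and each library left out were alternatives. The fits were also run on simulated counts, but recovery of changes was required only of the genotype fit with a replicate block. That check does not show the power of the genotype fit without the block. FPKM used a pseudocount of 1.

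The 10 genes, the 11 related lists and the 12 marker lists were chosen with earlier results of these data known. From each related list up to 4 genes by smallest p by replicate number and 2 by genotype were open to naming, at a mean log2 CPM of at least 3.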

Additional observations from a re-analysis of the deposited data

How the results depend on the processing

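The number of genes called by genotype, 0 in edgeR (41 at an unadjusted p under 0.05), was 1 in DESeq2 and 0 in limma-voom. With a block for the replicate number it was 10 (0.0787% of genes), and, in fits chosen after seeing the data, 23 in DESeq2 and 47 in limma-voom with the block. None of these calls was among the 10 immediate early genes, and the block turned the sign of none of them. The numbers are not stated to pair the samples, and the deviations of the same-numbered libraries from their genotype means had a correlation of 0.73 over 12710 genes. With 1 library left out it was 0 to 4, namely 4 without WT replicate 2, 1 each without WT replicate 1 and CCL5-/- replicate 2, and 0 without CCL5-/- replicate 1. The number called by replicate number, 3767, fell to 2067 without WT replicate 1 and to 2336 without CCL5-/- replicate 1, and was at most 3215 with 1 library left out. With another tool, scaling or filter it was within 1.5 times 3767.

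With 1 library left out the genotype log2 change of each of the 10 genes took either sign. It ranged from -0.91 to 0.96 for Fos, -0.24 to 1.51 for Fosb, -0.089 to 0.21 for Jun, -0.35 to 0.60 for Junb and -0.49 to 0.21 for Atf3. It ranged from -0.21 to 0.76 for Egr1, -0.69 to 0.22 for Nr4a1, -0.47 to 0.20 for Ier2, -0.57 to 0.53 for Dusp1 and -0.54 to 0.39 for Zfp36. Leaving out a library unbalances the replicate numbers between the genotypes. By replicate number only Atf3 changed sign (-0.57 to 0.12). The sign held for all 10 genes in both comparisons under every other tool, scaling, filter and model term run, and in F4/80hi with a pseudocount of 0.1 FPKM. The depth of the FPKM values is unknown.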
